A study of Mus musculus with 26 samples.

Results

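The 7 genes described here belong to the sterol pathway and were followed through mouse colon during colitis-associated tumorigenesis: *Srebf2*, *Insig1*, *Hmgcs1*, *Idi1*, *Sqle*, *Lss* and *Dhcr7*. The set was given by name, and the counts of all transcripts of each gene were added up. All 7 were found among 35975 genes and all 7 passed the filter on low counts, which left 17063 genes for testing. In the annotation of the mouse genome build GRCm38 all 7 are protein-coding genes on the plus strand. *Srebf2* (ENSMUSG00000022463.8) lies on chromosome 15 from 82147181 to 82205379 and *Sqle* (ENSMUSG00000022351.14) on the same chromosome from 59315077 to 59331192. *Hmgcs1* (ENSMUSG00000093930.2) and *Idi1* (ENSMUSG00000058258.14) lie on chromosome 13, from 119690379 to 119708260 and from 8885501 to 8892451. *Lss* (ENSMUSG00000033105.12) lies on chromosome 10 from 76531588 to 76557138, *Dhcr7* (ENSMUSG00000058454.15) on chromosome 7 from 143823145 to 143848410, and *Insig1* (ENSMUSG00000045294.11) on chromosome 5 from 28071363 to 28078662.

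As background, cells make cholesterol from acetyl-CoA or take it up with lipoproteins. When sterols in the endoplasmic reticulum run low, the transcription factor SREBP-2, encoded by *Srebf2*, is carried by SCAP to the Golgi, released by proteases, and switches on the synthesis genes, uptake genes and its own gene. INSIG1 holds SCAP and SREBP-2 back when sterols are plentiful and is itself an SREBP target, so that its transcript belongs to a negative feedback. Of the enzymes here, HMG-CoA synthase (*Hmgcs1*) and isopentenyl-diphosphate isomerase (*Idi1*) act in the mevalonate part of the route, squalene epoxidase (*Sqle*) and lanosterol synthase (*Lss*) build the sterol ring system, and 7-dehydrocholesterol reductase (*Dhcr7*) makes cholesterol from its direct precursor. Liver X receptors (LXRs) sense oxysterols and drive the opposite arm, cholesterol efflux through ABC transporters and loss of lipoprotein receptors through the ubiquitin ligase encoded by *Mylip*, and they also induce *Srebf1*. None of the 7 genes is itself an uptake receptor, so uptake genes are given from a list beside them.

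Bulk RNA sequencing had been done on 26 colon samples of wild-type male C57BL/6J mice bought from Taconic and about 10 weeks old at the start. Mice ate a standard diet (STD) or a diet containing GW3965, a synthetic LXR agonist. Colon tumours were induced with the carcinogen azoxymethane (AOM) followed by 3 cycles of the colitis-inducing agent dextran sodium sulphate (DSS) in drinking water, and tissue was taken 22, 43 or 70 days after the injection, with 3 samples per diet at each day. The group named day 0 had 4 samples per diet, from mice that received neither AOM nor DSS, of which 2 had eaten the diet for 22 days and 2 for 43 days. All groups are thus whole-tissue samples of the same strain and sex, with the agonist given by mouth, and in such samples fewer cells of a type and less RNA per cell cannot be told apart. Mice of one diet shared 1 cage at day 0 and another cage at days 22 and 43, so that diet and cage cannot be told apart at those days. The 6 samples of day 70 came from 6 further cages. No cage of day 0 held samples of another day, so that day and cage cannot be told apart in any comparison with day 0. P-values therefore measure the spread between these samples.

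Total counts ran from 18195345 to 41522204 per sample (median 20424702), and the lowest count of any of the 7 genes in any sample was 286, for *Lss*. The library labelled STD day 43 replicate 1 had an RNA integrity number of 2.6 and the largest total. Ribosomal protein transcripts took 3.96% to 18.6% of counts, 10.0% or more in all 6 samples of day 43 and at most 10.7% in the other 20. One day 0 sample was titled as GW3965 and labelled with the standard diet. It was placed by its title, and its *Abca1* level of 151.5 CPM lay with those of the other GW3965 samples of day 0 (113 to 148 CPM) and outside those of the standard diet (18.5 to 41.0 CPM). The 7 markers of colon epithelium summed to 6097 to 11860 CPM in STD day 0 and were above 0 in every group. The LXR target list rose with GW3965 at each day, with 5, 4, 5 and 6 of 6 genes past the threshold at days 0, 22, 43 and 70. CPM are counts per 1000000 counts of the library after TMM normalization, and a change was called where the adjusted P of edgeR's quasi-likelihood F-test was under 0.05.

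The promoters of the 7 genes were read to show what letters for the sterol response they carry. In the RefSeq promoter table for GRCm38.p6, which gives 250 bases before and 50 after each start, 6 of the 7 genes had an entry, with 8 promoters in all. *Sqle* had none. A search on both strands covered TCACNCCAC, a spelling of the sterol regulatory element to which SREBPs bind, and CCAAT, the NF-Y box that often accompanies it. A further spelling, TCACCCCA, was added after the sequences had been read, and it overlaps the first. The 250 bases upstream of the 5 genes with 1 promoter each are shown to let the matches be seen in place, with capitals marking TCACNCCAC or TCACCCCA on the shown strand and ATTGG, which is CCAAT on the other strand.
Hmgcs1, chr13:119690101-119690350, plus strand: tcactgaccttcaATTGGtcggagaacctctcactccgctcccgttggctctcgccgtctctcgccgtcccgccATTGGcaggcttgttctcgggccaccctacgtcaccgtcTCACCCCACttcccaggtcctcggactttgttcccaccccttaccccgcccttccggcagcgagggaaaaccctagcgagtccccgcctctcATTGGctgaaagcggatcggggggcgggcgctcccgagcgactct
Srebf2, chr15:82147019-82147268, plus strand: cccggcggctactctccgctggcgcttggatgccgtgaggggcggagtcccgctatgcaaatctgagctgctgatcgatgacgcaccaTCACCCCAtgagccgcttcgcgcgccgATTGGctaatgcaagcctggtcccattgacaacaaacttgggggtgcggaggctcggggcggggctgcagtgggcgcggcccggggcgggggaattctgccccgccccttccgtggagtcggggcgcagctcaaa
Insig1, chr5:28071162-28071411, plus strand: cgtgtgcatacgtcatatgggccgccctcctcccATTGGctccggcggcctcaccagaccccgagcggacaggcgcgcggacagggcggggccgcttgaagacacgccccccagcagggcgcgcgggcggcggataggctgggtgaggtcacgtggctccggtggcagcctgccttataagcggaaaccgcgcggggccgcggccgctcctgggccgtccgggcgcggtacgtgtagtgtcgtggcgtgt
Idi1, chr13:8885356-8885605, plus strand: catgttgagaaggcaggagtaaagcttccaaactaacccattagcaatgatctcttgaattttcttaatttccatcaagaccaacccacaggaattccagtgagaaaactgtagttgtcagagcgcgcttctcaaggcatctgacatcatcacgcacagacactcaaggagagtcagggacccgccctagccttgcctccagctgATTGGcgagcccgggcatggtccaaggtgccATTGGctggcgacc
Lss, chr10:76531355-76531604, plus strand: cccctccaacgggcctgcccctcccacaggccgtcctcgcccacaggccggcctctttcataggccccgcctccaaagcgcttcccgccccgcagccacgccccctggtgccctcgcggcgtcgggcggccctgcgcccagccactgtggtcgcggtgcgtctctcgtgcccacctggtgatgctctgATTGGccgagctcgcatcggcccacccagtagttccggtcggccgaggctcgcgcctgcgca

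TCACNCCAC was found in 1 of the 8 promoters, that of *Hmgcs1*, where it begins 137 bases before the start, and in 1.24% of all 32851 promoters. TCACCCCA was found in 2 of the 8 promoters, those of *Hmgcs1* and *Srebf2*, where it begins at 137 and 162 bases before the start, and in 1.56% of all promoters. CCAAT was found in 6 of the 8 promoters, which cover 6 of 6 genes, and in 37.4% of all promoters, with 4 copies in the window of *Hmgcs1*, 1 of them after the start and so not in the stretch shown, 2 in that of *Idi1* and 1 each in those of *Lss*, *Srebf2* and *Insig1*. *Dhcr7* had 3 promoters, of which 1 held CCAAT. Among 16 other enzymes of cholesterol synthesis, 12 had an entry with 13 promoters in all, of which 11 held CCAAT and 0 held TCACNCCAC or TCACCCCA. Matches describe letters in these windows and were not tested as binding sites.

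On the TPM scale, which takes transcript length into account, *Hmgcs1* had the highest mean level over the 26 samples (84.7 TPM), followed by *Idi1* (74.5), *Insig1* (63.4), *Srebf2* (61.3), *Dhcr7* (47.4), *Sqle* (44.0) and *Lss* (14.03). Levels varied widely between samples. The highest sample exceeded the lowest by 9.45-fold in CPM for *Hmgcs1*, 6.29-fold for *Srebf2*, 6.18-fold for *Lss*, 5.76-fold for *Dhcr7*, 4.93-fold for *Sqle*, 4.66-fold for *Idi1* and 4.09-fold for *Insig1*. By group means, *Srebf2* was lowest in STD day 43 at 88.4 ± 16.01 CPM (SD, n = 3) and highest in STD day 70 at 322 ± 103 (SD, n = 3), and the samples of these groups did not overlap. *Hmgcs1* was highest in STD day 0 at 356 ± 199 CPM (SD, n = 4) and lowest in STD day 22 at 118 ± 46.5 (SD, n = 3), with overlap. *Insig1* was highest in STD day 0 at 213 ± 63.3 CPM (SD, n = 4) and lowest in STD day 43 at 101 ± 30.9 (SD, n = 3). *Lss* ran from 16.03 ± 1.39 CPM in STD day 43 (SD, n = 3) to 67.6 ± 22.8 in GW3965 day 70 (SD, n = 3), groups that did not overlap. The highest group was the same in CPM and TPM for 7 of 7 genes and the lowest for 6 of 7.

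**Figure D1:**
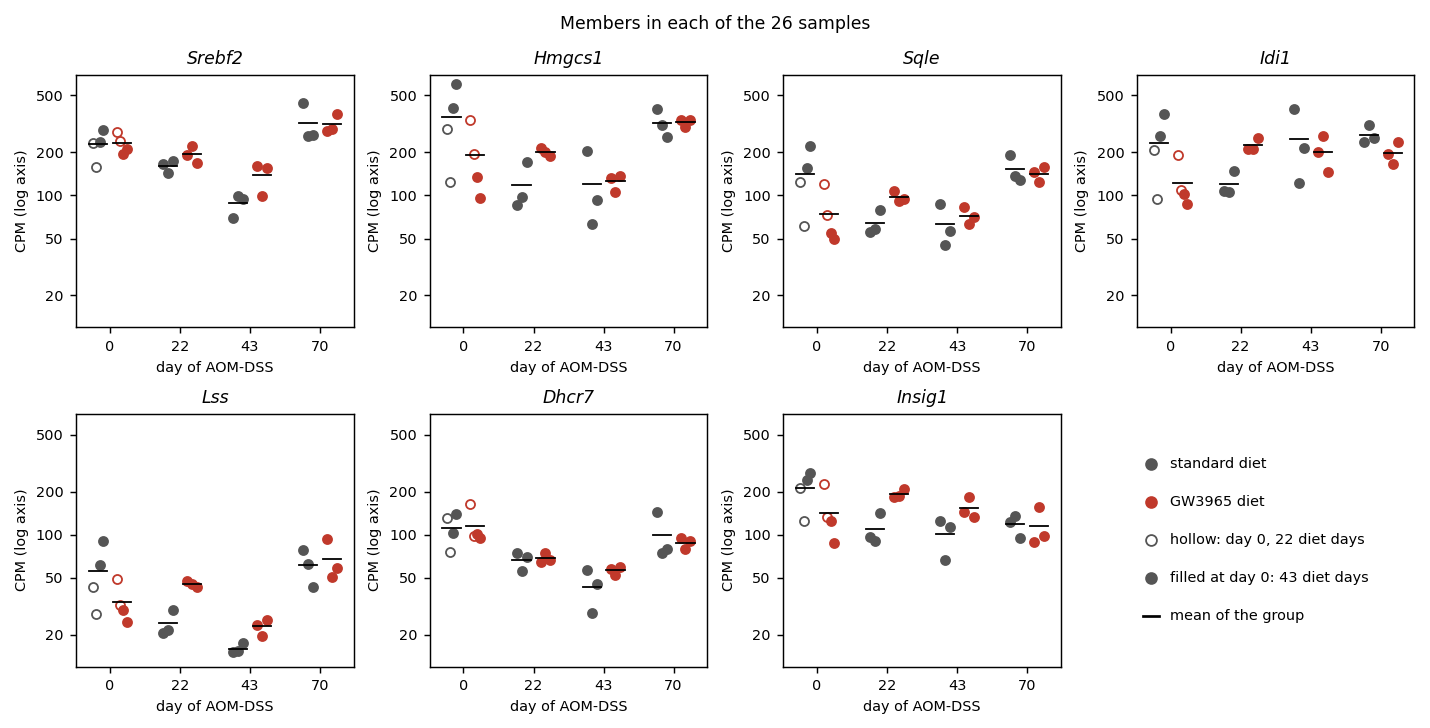
CPM on a log axis for each of the 7 genes in each of the 26 samples against the day of AOM–DSS, grey for the standard diet and red for GW3965, with the group mean as a line and day 0 samples of 22 diet days hollow. *Hmgcs1* runs from 124 to 596 CPM within STD day 0, and the day 22 GW3965 points lie above all standard diet points for 5 genes.

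The first question was what the agonist did to these genes in colon without tumour induction. At day 0, 5 of the 7 genes had lower fitted values with GW3965 and none was called. *Hmgcs1* measured 292, 124, 411 and 596 CPM in the 4 samples of the standard diet, of which the first 2 had 22 days and the last 2 had 43 days of diet, and 337, 195, 135 and 95.3 in the GW3965 samples in the same order. The groups overlapped, but the order of the samples differed by length of diet: the 2 highest standard diet samples and the 2 lowest GW3965 samples were those of 43 days. The log2 fold change of GW3965 against the standard diet was -0.89 (SE 0.414, adjusted P = 1).

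*Sqle* measured 124, 61.00, 156 and 221 CPM with the standard diet and 121, 73.2, 54.9 and 49.6 with GW3965, a log2 fold change of -0.91 (SE 0.311, adjusted P = 1). *Idi1* measured 207, 93.9, 261 and 373 CPM against 191, 109.8, 102 and 86.7, a log2 fold change of -0.96 (SE 0.344, adjusted P = 1). *Lss* measured 42.8, 28.1, 61.3 and 90.6 CPM against 48.9, 32.5, 29.8 and 24.5, a log2 fold change of -0.70 (SE 0.282, adjusted P = 1). All these enzymes ranked their samples nearly alike, with the standard diet sample of 43 days and replicate 2 highest. The feedback gene *Insig1* had a log2 fold change of -0.59 (SE 0.279, adjusted P = 1). Neither *Srebf2*, at 0.050 (SE 0.183), nor *Dhcr7*, at 0.039 (SE 0.235), shared the lower values.

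Of all 17063 genes, 0.0293% were called at day 0, all of them higher, and 1.4% were lower at an unadjusted P under 0.05 against 5 of the 7 genes. None of the 7 was called by DESeq2 or by edgeR's likelihood ratio test at any of the 4 days either. The median log2 fold change of the 7 was -0.70 beside -0.015 over all genes. Without the sample of conflicting labels, *Sqle* stood at -0.75, *Hmgcs1* at -0.67 and *Insig1* at -0.40.

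A fit with the day 0 samples divided by length of diet, added after these values had been seen, gave 1 of 7 genes lower after 22 diet days and 7 of 7 lower after 43. After 43 days the log2 fold change was -2.10 (SE 0.483, adjusted P = 0.468) for *Hmgcs1*, -1.83 (SE 0.348, adjusted P = 0.106) for *Sqle*, -1.81 (SE 0.424, adjusted P = 0.468) for *Idi1*, -1.45 for *Lss* and -1.30 for *Insig1*. None was called in this division, with 0.0352% of all genes called after 43 days and 0.0117% after 22 days. After 22 days the same genes stood at 0.36, 0.071, -0.019, 0.20 and 0.077. The difference between the lengths was -2.46 for *Hmgcs1* (SE 0.665, adjusted P = 0.581), and none of the 7 was called, with 0% of all genes called. Each side of this rests on 2 samples, and the lone comparison of 22 with 43 diet days within the standard diet gave *Hmgcs1* 1.29 and *Lss* 1.11, and within GW3965 -1.17 and -0.55. These were not called, and 0% of all genes were. The 7 epithelial markers summed to 8872 and 11860 CPM in the standard diet samples of 43 days and 7761 and 8404 in those with GW3965, and the 6 smooth muscle markers to 6848 and 6054 against 9059 and 10200, both without overlap and with no marker at 0. Of the day 0 samples, STD replicate 2 of 22 diet days had the lowest epithelial sum (6097 CPM) and the highest smooth muscle sum (17040), beside low levels of *Hmgcs1* (124 CPM) and *Lss* (28.1). Their part in the result was not tested.

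At day 22, after the first DSS cycle, the direction was the other one: all 7 genes had higher fitted values with GW3965, and 5 of them separated the diets without overlap, against 12.1% of all genes. None was called, with 0.135% of all genes called. *Lss* measured 20.6, 21.6 and 29.96 CPM with the standard diet and 47.4, 44.9 and 43.4 with GW3965, so that the lowest GW3965 sample lay above the highest standard diet sample. Its log2 fold change was 0.96 (SE 0.332, adjusted P = 0.285), or 1.95-fold. *Idi1* measured 107, 105 and 149 against 212, 213 and 250.3 CPM, with a log2 fold change of 0.81 (SE 0.400, adjusted P = 0.511). *Hmgcs1* measured 85.7, 97.3 and 171 against 216, 202 and 189.6 CPM, with a log2 fold change of 0.82 (SE 0.484, adjusted P = 0.602). In *Hmgcs1*, the third standard diet sample lay close under the GW3965 samples and the other 2 lay well below.

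*Insig1* measured 96.2, 90.6 and 142 CPM with the standard diet and 184, 187 and 208 with GW3965, without overlap, a log2 fold change of 0.77 (SE 0.327, adjusted P = 0.422). *Sqle* measured 55.7, 58.3 and 78.9 against 107, 92.1 and 94.01 CPM, without overlap, a log2 fold change of 0.63 (SE 0.362, adjusted P = 0.591). *Srebf2* measured 165, 143 and 175 against 193, 222 and 169.6 CPM, and the groups overlapped, with a log2 fold change of 0.35 (SE 0.214, adjusted P = 0.624). *Dhcr7*, the last enzyme of the route, measured 74.05, 55.6 and 70.5 against 64.6, 74.96 and 66.1 CPM and stood at 0.080 (SE 0.276). In the 5 genes picked for not overlapping, the highest GW3965 sample was 1.09 to 1.18 times the lowest, against 1.41 to 2.00 times with the standard diet. *Dhcr7* ran from 64.6 to 74.96 CPM with GW3965 and 55.6 to 74.05 with the standard diet. *Srebf2* went the other way, at 169.6 to 222 CPM with GW3965 and 143 to 175 with the standard diet. No share of all genes is given for this spread.

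Of the 7 genes *Lss* and *Insig1* passed an unadjusted P of 0.05 in the higher direction at day 22, against 5.21% of all genes. The median log2 fold change of the 7 was 0.77 beside -0.013 over all genes. Epithelial markers summed to 5066 to 7677 CPM with the standard diet and 6665 to 7715 with GW3965, goblet cell markers to 2377 to 5481 and 3963 to 8033, and fibroblast markers to 1273 to 3506 and 1009 to 1353, with all markers of these lists above 0. Markers of proliferating cells summed to 231 to 366 CPM with the standard diet and 394 to 534 with GW3965, without overlap and with 7 of 7 above 0. Adipocyte markers summed to 1.72 to 2.34 and 3.81 to 12.7, also without overlap, and *Lep* was at 0 with the standard diet. Their part in the result was not tested, and all 3 samples of each diet came from 1 cage.

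**Figure D2:**
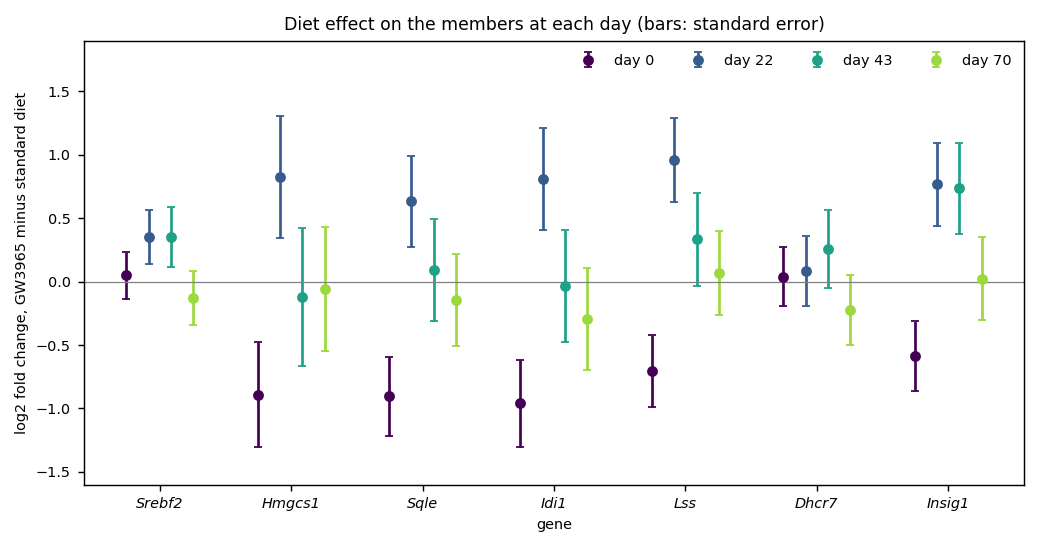
Log2 fold change of GW3965 against the standard diet for each of the 7 genes at days 0, 22, 43 and 70, with the standard error as bars. Day 0 points lie below 0 for 5 genes, from -0.59 to -0.96, day 22 points lie above 0 for the same genes, from 0.63 to 0.96, and day 70 points lie between -0.29 and 0.068.

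The difference between the diet effects of days 22 and 0 was tested directly. It was 1.77 (SE 0.526, adjusted P = 0.436) on the log2 scale for *Idi1*, 1.72 (SE 0.635, adjusted P = 0.617) for *Hmgcs1*, 1.66 (SE 0.434, adjusted P = 0.298) for *Lss*, 1.54 (SE 0.476, adjusted P = 0.478) for *Sqle* and 1.35 (SE 0.429, adjusted P = 0.487) for *Insig1*. These 5 genes passed an unadjusted P of 0.05 against 3.85% of all genes in that direction, and none of the 7 was called, with 0.0234% of all genes called. DESeq2 called 1 of the 7, *Lss*, at 1.66 with an adjusted P of 0.0409, and its share of all genes called is not given. *Srebf2* and *Dhcr7* stood at 0.30 (SE 0.280) and 0.041 (SE 0.361). With day 22 set against the day 0 samples of 22 diet days alone, these last values turned to -0.080 and -0.27, and *Lss* stood at 0.75, *Hmgcs1* at 0.46 and *Idi1* at 0.82.

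At day 43, within the period of repeated DSS, no member was called between the diets, with 0.0293% of all genes called, and none passed an unadjusted P of 0.05, against 8.65% of all genes. *Insig1* measured 125, 66.3 and 113 CPM with the standard diet and 144, 185 and 133 with GW3965, without overlap, a log2 fold change of 0.74 (SE 0.359, adjusted P = 0.575). *Lss* measured 15.1, 15.3 and 17.6 against 23.6, 19.7 and 25.3 CPM, also without overlap, a log2 fold change of 0.33 (SE 0.368, adjusted P = 0.833). These were the 2 of 7 genes that were higher without overlap, against 6.73% of all genes. *Srebf2* measured 70.1, 99.9 and 95.03 against 159, 98.96 and 156 CPM, with 1 GW3965 sample among the standard diet samples. *Hmgcs1* measured 204, 63.1 and 93.7 against 133, 105 and 137 CPM, and the highest value of the 6 was that of the library of low RNA integrity. Without that library 0 of the 7 were called between the diets.

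That library also held the highest *Idi1* level of all samples, and *Idi1* measured 404, 122 and 216 CPM with the standard diet and 200.2, 261 and 147 with GW3965. Its *Lss* level, 15.1 CPM, was in contrast the lowest of all samples. The ratio of *Idi1* to *Lss* in CPM was 26.7 in this library, where the RNA integrity number was 2.6. In the other samples of day 43 the ratio was 13.2, 12.2, 8.50, 7.95 and 5.80 at integrity numbers of 6.8, 7.8, 8, 8.4 and 9.3. On the other days it lay between 2.09 and 5.82, with integrity numbers of 9.1 or more. *Idi1* and *Lss* thus did not keep their proportion in most samples of day 43, and the ratio moved with the integrity number, whose part was not tested. All ratios examined overlapped between day 43 and the other days, that of *Idi1* to *Lss* only between 5.80 and 5.82. The medians at day 43 and on the other days were 10.4 and 4.18 for *Idi1* to *Lss*. They were 0.933 and 0.974 for *Hmgcs1* to *Srebf2* and 3.22 and 2.45 for *Sqle* to *Lss*. For *Insig1* to *Srebf2* they were 1.05 and 0.636, and for *Idi1* to *Srebf2* 1.76 and 0.713.

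**Figure D3:**
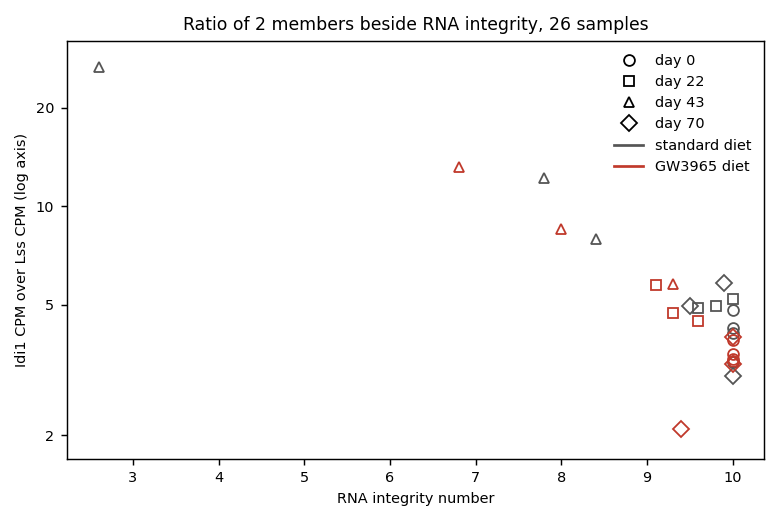
Ratio of *Idi1* to *Lss* (CPM over CPM, log axis) against the RNA integrity number for the 26 samples, symbols by day and colours by diet. The 6 samples of day 43 lie between 5.80 and 26.7 at integrity numbers of 2.6 to 9.3, the other 20 between 2.09 and 5.82.

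At day 70, when tumours are sampled in this model, no member was called between the diets. *Hmgcs1* measured 405, 309 and 256 CPM with the standard diet and 339, 302 and 334 with GW3965, a log2 fold change of -0.058 (SE 0.485). *Srebf2* measured 441, 260.2 and 264 against 283, 291 and 371 CPM, a log2 fold change of -0.13 (SE 0.214). *Sqle* measured 192, 138 and 128 against 145, 124 and 158 CPM, a log2 fold change of -0.14 (SE 0.363). In each of these genes the first standard diet sample was the highest of the 6.

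*Lss* measured 78.2, 62.4 and 43.4 against 93.6, 50.5 and 58.9 CPM and *Insig1* 123, 136 and 95.3 against 88.9, 157 and 98.1, with log2 fold changes of 0.068 (SE 0.331) and 0.025 (SE 0.330). *Dhcr7* measured 145, 74.4 and 80.1 against 94.6, 79.4 and 89.9 CPM, at -0.23 (SE 0.276). *Idi1* alone of the 7 did not overlap, at 237, 310.3 and 253 CPM with the standard diet and 196, 167 and 235 with GW3965, and its log2 fold change was -0.29 (SE 0.404, adjusted P = 0.723). Of all genes, 8.53% were lower without overlap and 1.83% were called, against 0 called among the 7, of which 0 had an unadjusted P under 0.05 against 18.8% of all genes.

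The samples of day 70 were uneven in composition. The colon epithelium markers summed to 2708 CPM in the first GW3965 sample, the lowest of all samples, and to 7734 to 18200 in the rest of day 70. Stratified squamous epithelium markers summed to 2446 to 3892 CPM with the standard diet and to 22740, 5.49 and 10210 in the 3 GW3965 samples, against 5.97 to 9.25 at day 0, where the defining marker *Ivl* was at 0. The first GW3965 sample also carried 16360 CPM of skeletal muscle markers and 140.5 of sebaceous gland markers. It had the highest *Lss* level of all samples, 93.6 CPM, and the lowest *Insig1* level of day 70, 88.9 CPM. STD day 70 replicate 2 carried 98.31 CPM of sebaceous gland and 667 of skeletal muscle markers, beside 62.4 CPM of *Lss*. The other 4 samples carried at most 7.06 and 126 CPM of these markers. Immune markers summed to 113 to 349.7 CPM with the standard diet and 520.5 to 692 with GW3965, without overlap, with 3 of 7 called higher. Without the first GW3965 sample the log2 fold change of *Lss* between the diets turned from 0.068 to -0.20. The part of these cell types in the result was not tested.

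Against day 0, the standard diet samples of day 22 had lower fitted values for 7 of 7 genes, and *Lss* was called. It measured 42.8, 28.1, 61.3 and 90.6 CPM at day 0 and 20.6, 21.6 and 29.96 at day 22, with overlap at 1 sample on each side, and its log2 fold change was -1.13 (SE 0.323, adjusted P = 0.0361). *Insig1* followed at -1.02 (SE 0.317, adjusted P = 0.0520), *Hmgcs1* at -1.51 (SE 0.480, adjusted P = 0.0587), *Sqle* at -1.08 (SE 0.355, adjusted P = 0.0689) and *Idi1* at -1.09 (SE 0.390, adjusted P = 0.0969), all short of the threshold. *Dhcr7*, at -0.69 (SE 0.266, adjusted P = 0.125), was the only one of the 7 whose samples did not overlap, against 11% of all genes lower in that way, with 130.5, 76.1, 103 and 139 CPM at day 0 and 74.05, 55.6 and 70.5 at day 22. *Srebf2* stood at -0.37 (SE 0.206, adjusted P = 0.328).

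Of all genes 1.54% were called lower in that comparison and 7.73% in either direction, beside 1 of 7. DESeq2 called 5 of the 7 lower, a count to which these shares from edgeR do not apply, and its own share of all genes is not given. The call for *Lss* was lost without any 1 of the 3 day 22 samples, without either day 0 sample of 43 diet days, and with day 43 left out of the fit, where its log2 fold change was -1.04 (adjusted P = 0.0940). Against the 2 day 0 samples of 22 diet days alone it was -0.47 (adjusted P = 0.429). Differentiated colonocyte markers summed to 1571 to 3969 CPM in STD day 0 and 666 to 1860 in STD day 22, and immune markers to 103 to 244 and 354 to 726, with none at 0 and their part not tested.

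With GW3965, day 22 gave higher fitted values for 5 of 7 genes and lower ones for *Srebf2* and *Dhcr7*, none called, where 12.6% of all genes were called. *Idi1* measured 191, 109.8, 102 and 86.7 CPM at day 0 and 212, 213 and 250.3 at day 22, without overlap, a log2 fold change of 0.68 (SE 0.391, adjusted P = 0.284). Of all genes 25.2% were higher and 23% lower without overlap. *Dhcr7* measured 163, 98.7, 101 and 94.4 against 64.6, 74.96 and 66.1 CPM, lower without overlap, a log2 fold change of -0.65 (SE 0.276, adjusted P = 0.133). It passed an unadjusted P of 0.05, against 9.93% of all genes in that direction, and without the ribosomal term was called at -0.74 (adjusted P = 0.0466), where 20.7% of all genes were called.

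At day 43 the result against day 0 depended on the ribosomal term, which follows that day. With the term, the standard diet gave 7 of 7 lower fitted values and called 0, where 0% of all genes were called, and *Insig1* passed an unadjusted P of 0.05 at -1.56 (SE 0.659, adjusted P = 0.524), against 2.5% of all genes in that direction. Without it, 6 of 7 genes were called lower, where 55.1% of all genes were called in either direction. Those were *Lss* at -1.80, *Hmgcs1* at -1.56, *Dhcr7* at -1.37, *Srebf2* at -1.37, *Sqle* at -1.16 and *Insig1* at -1.07, while *Idi1* stood at 0.082. Of the 7, 4 were lower without overlap, against 22.8% of all genes. *Srebf2* was one of them, with 232, 157, 238 and 285 CPM at day 0 and 70.1, 99.9 and 95.03 at day 43.

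With GW3965, day 43 against day 0 called 0 of 7 with the term, where 0.938% of all genes were called and 0 of the 7 passed an unadjusted P of 0.05 against 13.6%. Without it *Dhcr7* at -1.01 (adjusted P = 0.00363) and *Srebf2* at -0.75 (adjusted P = 0.0115) were called lower, where 45.3% of all genes were called. DESeq2 with the term called 0 of the 7 at day 43 on either diet. Epithelial markers summed to 3320 to 5335 CPM in STD day 43 and 4797 to 6805 in GW3965 day 43, immune markers to 1661 to 6868 and 626 to 1746, and fibroblast markers to 3676 to 4463 and 1447 to 2611, with none at 0. Day, ribosomal percentage and RNA integrity moved together, and their parts cannot be told apart at this day.

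At day 70 the feedback gene was the 1 of 7 called on the standard diet against day 0. *Insig1* measured 214, 125, 243 and 271 CPM at day 0 and 123, 136 and 95.3 at day 70 and fell, with a log2 fold change of -0.86 (SE 0.307, adjusted P = 0.0366), the groups overlapping at 1 day 0 sample. *Srebf2*, encoding the activator, measured 232, 157, 238 and 285 CPM at day 0 and 441, 260.2 and 264 at day 70, a log2 fold change of 0.49 (SE 0.196, adjusted P = 0.0581). The 5 enzymes lay between -0.17 (*Dhcr7*) and 0.17 (*Idi1*). Of all genes 33.2% were called, and 15.1% were called lower, beside 1 of 7. The call of *Insig1* was lost without replicate 1 of 22 diet days or either replicate of 43 diet days at day 0, or without any 1 of the day 70 samples, with log2 fold changes of -0.72 to -0.97 in those fits, and with the replicate block, at -0.85 (adjusted P = 0.0541). In the same comparison 5 of 6 differentiated colonocyte markers, 6 of 6 smooth muscle markers and 6 of 6 enteric neuron and glia markers were called lower, and 7 of 7 proliferation and 4 of 4 stem cell markers were called higher. Colonocyte markers summed to 1571 to 3969 CPM at day 0 and 77.7 to 167 at day 70, and smooth muscle markers to 6054 to 17040 and 1248 to 2622, with none at 0. Their part in the result was not tested.

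With GW3965, *Lss* rose from day 0 to day 70. It measured 48.9, 32.5, 29.8 and 24.5 CPM at day 0 and 93.6, 50.5 and 58.9 at day 70, without overlap, a log2 fold change of 0.91 (SE 0.312, adjusted P = 0.0416), or 1.88-fold. *Sqle*, at 121, 73.2, 54.9 and 49.6 against 145, 124 and 158 CPM, was also higher without overlap and just short of the threshold at 0.88 (SE 0.341, adjusted P = 0.0689). *Srebf2*, at 279.5, 241, 196 and 212 against 283, 291 and 371 CPM, was the third gene without overlap, at 0.32 (SE 0.202, adjusted P = 0.279). *Idi1* stood at 0.83 (SE 0.377, adjusted P = 0.121), *Hmgcs1* at 0.69 (SE 0.455, adjusted P = 0.293), *Insig1* at -0.25 (SE 0.313, adjusted P = 0.612) and *Dhcr7* at -0.44 (SE 0.264, adjusted P = 0.250). Of all genes 21.8% were called, 14.4% were called higher and 18.3% were higher without overlap, against 1 and 3 of the 7.

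The call of *Lss* depended on single libraries and on several choices of the fit. Without the GW3965 day 70 sample rich in skeletal muscle and squamous markers its log2 fold change was 0.62 (adjusted P = 0.198), and without the sample of conflicting labels 0.78 (adjusted P = 0.115). It was also lost without GW3965 day 70 replicate 3, day 0 replicate 2 of 22 diet days or day 0 replicate 1 of 43 diet days, at 0.98, 0.88 and 0.86. With counts scaled by transcript length it was 0.40 (adjusted P = 0.548). Its adjusted P was 0.0505 with DESeq2's size factors, 0.0643 with no filter on low counts, 0.0729 with the compared groups alone, 0.0615 with the replicate block and 0.0959 with day 43 left out. The standard diet and GW3965 comparisons use different day 0 samples, and the difference between the diets' changes from day 0 to day 70 was called for 0 of the 7, with *Lss* at 0.77 (SE 0.437, adjusted P = 0.470) and 0 of 7 at an unadjusted P under 0.05 against 12.7% of all genes. At day 43 the like difference was called for 0 of 7, with *Insig1* at 1.32 (SE 0.459) and *Lss* at 1.04 (SE 0.467) past an unadjusted P of 0.05 against 2.05% in that direction, and 0% of all genes were called at either day.

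**Figure D4:**
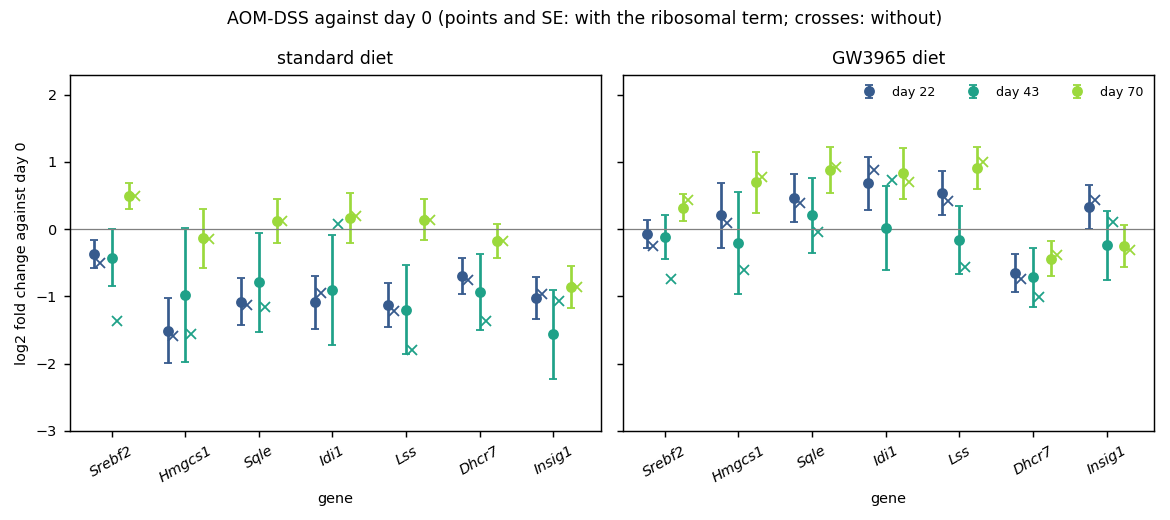
Log2 fold change of days 22, 43 and 70 against day 0 on each diet, as points with the standard error for the model with the ribosomal term and crosses for the model without it. All day 22 and day 43 points of the standard diet lie below 0, the crosses lie farthest from the points at day 43, and at day 70 the points lie between -0.86 and 0.91 over both diets.

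The make-up of the counts by transcript differed between the genes. *Idi1*, *Insig1* and *Sqle* each drew over 90% of their counts from 1 protein-coding transcript in every sample. *Srebf2* drew 13.4% of its counts on average from Srebf2-205, annotated as a retained intron, which ranged from 6.76% to 25.1% over the samples, and the means of both day 43 groups, 20.7% ± 4.29 and 19.1% ± 5.21 (SD, n = 3 each), were the highest of the 8. *Lss* drew 24.9% and 12.2% from the retained-intron transcripts Lss-204 and Lss-207, and its protein-coding transcript Lss-201 ranged from 30.5% to 74.1%. Retained-intron counts can come from unspliced RNA, so the gene totals of these 2 genes hold more than the coding message.

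Over the 26 samples the members moved together to unequal degrees, as a description of samples that share libraries, days and cages. *Hmgcs1* and *Sqle* were most alike within groups, with a Pearson r of 0.971 between their deviations from the group means in log2 CPM, and *Srebf2* and *Idi1* least, at 0.163, with a median of 0.637 over the 21 pairs. Against the mean of the other 6, *Hmgcs1* reached 0.963, *Sqle* 0.934, *Lss* 0.881, *Dhcr7* 0.704, *Srebf2* 0.685, *Insig1* 0.509 and *Idi1* 0.475. After correction for the ribosomal percentage *Idi1* stood at 0.895 and *Insig1* at 0.648. *Srebf2*, the gene of the factor, thus ranked below *Hmgcs1*, *Sqle* and *Lss* on both scales.

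The 10 genes outside the set most like its mean pattern in log2 CPM included *Aacs* (r = 0.918), *Nsdhl* (0.898), *Hsd17b7* (0.871), *Atp5b* (0.849), *Ints10* (0.843), *Mdh2* (0.842), *Slc25a13* (0.840), *Samm50* (0.836) and *Atp5a1* (0.833), and 3 of the 10 are in the cholesterol lists used here. Corrected for the ribosomal percentage they included *Aacs* (0.919), *Nsdhl* (0.872), *Cyp51* (0.866), *Msmo1* (0.862), *Hsd17b7* (0.849), *Slc25a13* (0.823), *Tmem97* (0.817) and *Acat2* (0.816), and 8 of the 10 are in those lists. Of these, 5 genes were among the 10 on both scales. *Aacs* encodes acetoacetyl-CoA synthetase, which feeds ketone bodies into lipid synthesis, *Nsdhl* and *Hsd17b7* encode enzymes that remove and reduce groups on the sterol ring, and *Atp5b*, *Mdh2* and *Atp5a1* encode mitochondrial enzymes.

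Among the other 16 enzymes, all measured, 15 had lower fitted values with GW3965 at day 0 (median -0.53), 16 had higher ones at day 22 (median 0.71), 13 had higher ones at day 43 (median 0.24) and 15 had lower ones at day 70 (median -0.17). None was called at any of these days. At an unadjusted P under 0.05, 7 were lower at day 0, against 1.4% of all genes, and 7 higher at day 22, against 5.21%. At day 22, 13 of 16 were higher without overlap, against the 12.1% of all genes given above.

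Against day 0, 16 of the 16 enzymes had lower fitted values on the standard diet at day 22, of which 1 was called, against 1.54% of all genes called lower. *Pmvk* and *Stard4* are named here after their values were seen. With GW3965 at day 22, 15 of 16 had higher values and 1 was called, *Pmvk* (phosphomevalonate kinase) at 1.13 (SE 0.285, adjusted P = 0.0128), against 9.13% of all genes called higher. At day 70 the standard diet called 1 of 16, *Lbr* (a sterol reductase that also anchors chromatin at the nuclear lamina), at 0.75 (SE 0.220, adjusted P = 0.0133), where 33.2% of all genes were called. GW3965 called 4 of 16 at day 70, all higher, against 14.4% of all genes: *Hsd17b7* at 1.33 (SE 0.370, adjusted P = 0.0148), *Fdps* (farnesyl diphosphate synthase) at 1.12 (SE 0.380, adjusted P = 0.0397), *Mvd* at 0.89 (SE 0.298, adjusted P = 0.0374) and *Mvk* at 0.84 (SE 0.260, adjusted P = 0.0252), the last 2 encoding mevalonate pathway enzymes. The difference between the diets' changes to day 70 was called for 0 of 16, and 0 passed an unadjusted P of 0.05.

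**Figure D5:**
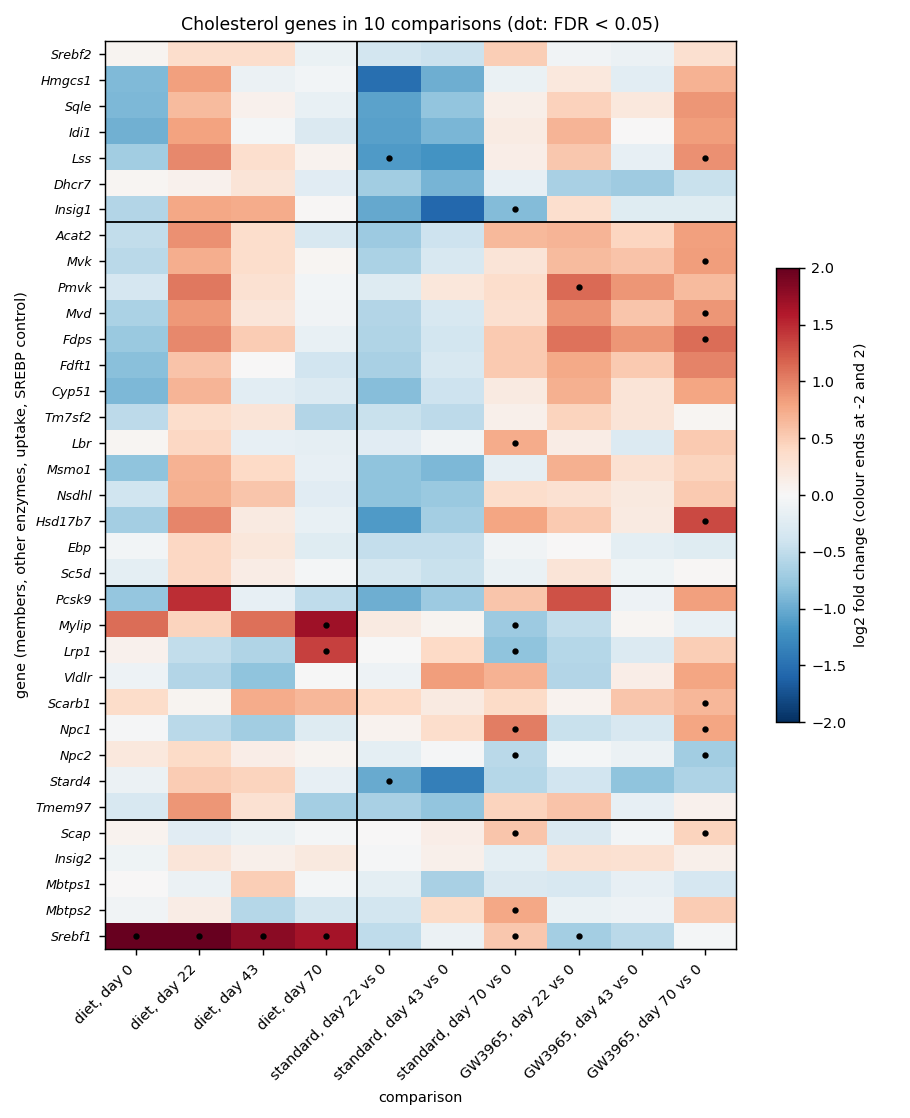
Log2 fold change, as colour from -2 (blue) to 2 (red), of the 7 genes, 14 other synthesis enzymes, 9 uptake and transport genes and 5 SREBP control genes in 10 comparisons, with a dot where the adjusted P was under 0.05. Most synthesis genes turn from blue at day 0 to red at day 22 in the diet columns without a dot, while *Srebf1* carries a dot at all 4 days.

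Among genes that control SREBP, 5 of 6 were tested. *Srebf1*, encoding the SREBP of fatty acid synthesis and itself an LXR target, rose with GW3965 at every day, by 2.23 (SE 0.169, adjusted P = 3.48e-07), 2.06 (SE 0.195, adjusted P = 1.74e-05), 1.81 (SE 0.213, adjusted P = 3.58e-04) and 1.66 (SE 0.194, adjusted P = 1.69e-04) at days 0, 22, 43 and 70. At day 0 it measured 105, 79.5, 115 and 144 CPM with the standard diet and 555, 517, 506 and 495 with GW3965, without overlap. *Scap*, encoding the escort of SREBP, was not called between the diets, at 0.066 (SE 0.141), -0.23 (SE 0.165), -0.13 (SE 0.187) and -0.033 (SE 0.166). It rose from day 0 to day 70 on the standard diet, by 0.55 (SE 0.151, adjusted P = 0.00888), and with GW3965, by 0.45 (SE 0.156, adjusted P = 0.0440). *Insig2*, the other INSIG gene, was not called between the diets either, at -0.094 (SE 0.124), 0.24 (SE 0.145), 0.10 (SE 0.160) and 0.20 (SE 0.148). From day 0 to day 70 on the standard diet *Insig2* stood at -0.19 (SE 0.135). There *Insig1* was called lower, a call lost without single samples as given above. *Mbtps2*, encoding the site-2 protease, rose on the standard diet at day 70 by 0.77 (SE 0.263, adjusted P = 0.0285), and *Srebf1* by 0.54 (SE 0.173, adjusted P = 0.0218).

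Among uptake and transport genes, 11 of 12 were tested. None was called between the diets at days 0, 22 or 43 in the main fit, where 0.0293%, 0.135% and 0.0293% of all genes were called. At an unadjusted P under 0.05 there were 1, 3 and 3. The 3 of day 22 were all higher, against 5.21% of all genes, and those of day 43 stood against 8.65% in either direction. No such share is given for day 0. *Mylip*, whose product degrades lipoprotein receptors, measured 25.7, 20.99 and 35.3 CPM with the standard diet and 95.7, 95.4 and 91.3 with GW3965 at day 70 and rose, by 1.703 (SE 0.275, adjusted P = 0.00857). In the main fit *Mylip* stood at 1.12 (SE 0.229, adjusted P = 0.183) at day 0, 0.45 (SE 0.264, adjusted P = 0.601) at day 22 and 1.11 (SE 0.290, adjusted P = 0.439) at day 43. It was not called at these days. With day 0 divided by length of diet, *Mylip* was called higher after 43 diet days, at 1.902 (SE 0.2273, adjusted P = 6.72e-04), where 0.0352% of all genes were called. After 22 diet days it stood at 0.487 and was not called. Each side of this rests on 2 samples, and the difference between the lengths, 1.415 (SE 0.312), was not called. *Lrp1*, encoding a large endocytic receptor, rose at day 70 by 1.37 (SE 0.299, adjusted P = 0.0292). *Mylip* and *Lrp1* were the 2 of 11 called between the diets at day 70, where 1.83% of all genes were called.

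From day 0 to day 70 on the standard diet, the uptake list had 2 genes called higher, among them *Npc1*, encoding the lysosomal cholesterol exporter, at 1.03 (SE 0.249, adjusted P = 0.00404). It had 3 called lower, *Lrp1* at -0.80 (SE 0.273, adjusted P = 0.0289), *Mylip* at -0.73 (SE 0.249, adjusted P = 0.0300) and *Npc2*, the partner of *Npc1*, at -0.54 (SE 0.170, adjusted P = 0.0199). Of all genes 33.2% were called in that comparison and 15.1% were called lower, beside 5 and 3 of 11. With GW3965, 3 genes were called higher, among them *Npc1* at 0.79 (SE 0.259, adjusted P = 0.0332) and *Scarb1*, encoding the HDL receptor, at 0.67 (SE 0.220, adjusted P = 0.0340), and *Npc2* was called lower at -0.70 (SE 0.176, adjusted P = 0.00788), where 21.8% of all genes were called and 14.4% were called higher. At day 22, *Stard4*, encoding a sterol carrier protein, fell on the standard diet, at -1.01 (SE 0.256, adjusted P = 0.0187).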

How the data were processed

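Transcript levels of 26 mouse colon samples had been quantified by the authors with kallisto against the GRCm38 transcriptome (version not given in the sources used here). The deposited estimated counts per transcript need not be whole, and the deposited TPM values are scaled for transcript length. Estimated counts were summed per gene through GENCODE M21, which matched 116728 of 119414 transcripts (97.8%) and left 0.615% to 0.999% of counts unmatched, and were rounded. Genes with low counts were removed with filterByExpr, leaving 17063. The main fit was edgeR's quasi-likelihood F-test (edgeR 4.0.16, limma 3.58.1, R 4.3.3) on 8 diet-by-day groups with TMM scaling and the percentage of counts in 88 ribosomal protein genes as a covariate. P-values were adjusted by Benjamini-Hochberg over all tested genes. The test was first run on simulated counts. DESeq2 1.42.0 was an alternative. Promoters came from RefSeq. Samples were grouped by their labels, and 1 with conflicting labels by its title. The 7 genes and the gene lists were chosen with earlier results of these data known. Genes named are the 7, the genes of the cholesterol lists called between diets or at day 70 against day 0, *Insig2*, *Scap* and *Mylip*, and the 10 most alike in pattern; some genes that meet the rule are not reported here. Other settings are given in the closing section.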

Additional observations from a re-analysis of the deposited data

Results flagged for a closer look

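*Dhcr7* in GW3965 day 0 had 1 sample, at 163.4 CPM, whose gap to the other 3 samples exceeded Dixon's limit for a group of 4. Such a gap arises by chance in about 1 in 20 groups, and 14 groups of 4 were examined.

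*Idi1* was higher in every GW3965 sample than in every standard diet sample at day 22, with a log2 fold change of 0.81, and lower in every GW3965 sample at day 70, with a log2 fold change of -0.29. The difference between these days was not tested.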

How the results depend on the processing

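The number of the 7 genes called depended on the fit. For the standard diet at day 22 against day 0 the count of 1 became 3 without the ribosomal term, 3 with the RNA integrity number added, 5 with DESeq2, 4 with the likelihood ratio test, 2 with DESeq2's size factors, 2 with length-scaled counts, and 0 with the compared groups alone, with day 0 split by diet days and with day 43 left out, and 0 to 5 on leaving out single samples. Without the ribosomal term or with the compared groups alone, the count of 0 became 6 and 6 for the standard diet at day 43, 1 and 2 for GW3965 at day 22, and 2 and 2 for GW3965 at day 43. For the standard diet at day 70 the count of 1 became 2 with the integrity number and 0 to 1 without single samples. For GW3965 at day 70 the count of 1 became 2 without the ribosomal term, with the likelihood ratio test and with day 0 split, 0 with DESeq2's size factors, with no filter, with length-scaled counts, with the compared groups alone and with day 43 left out, and 0 to 3 without single samples. DESeq2 called 1 gene in the difference of the diet effects of days 22 and 0, where the main count was 0. The causes were not tested, and the shares of all genes called are not given for most of these fits. Leaving out day 43 and splitting the diet effect of day 0 by diet days were chosen after seeing the data.

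Same-numbered samples did not deviate together (mean r -0.066 over 13 pairs, -0.37 to 0.201). With the replicate number as a block, the count was 0 for the standard diet at day 70 and 0 for GW3965 at day 70, against 1 and 1, and the block changed no other call.

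Values per gene were followed only for the diet effects at days 0, 22 and 70, the difference between those of days 22 and 0, and some comparisons with day 0. Those were the standard diet at days 22 and 70 and GW3965 at day 70. Among these, values that turned were near 0 for the most part. The diet effect at day 70 became 0.0087 for *Hmgcs1* and -0.040 for *Insig1* without the ribosomal term, 0.022 and -0.029 with the compared groups alone, and -0.092 for *Insig1* with day 43 left out. With day 0 split, the difference of diet effects at day 22 became -0.080 for *Srebf2* and -0.27 for *Dhcr7*, the change to day 70 on the standard diet became -0.31 for *Sqle*, -0.27 for *Idi1* and -0.31 for *Lss*, and that of *Insig1* with GW3965 became 0.21. Length-scaled counts gave *Lss* -0.14 for the standard diet at day 70. On leaving out single samples, the diet effect at day 0 ran from -0.18 to 0.16 for *Dhcr7* and -0.089 to 0.17 for *Srebf2*, and at day 22 from -0.022 to 0.17 for *Dhcr7*, whose difference from day 0 ran from -0.079 to 0.25. At day 70 it ran from -0.37 to 0.17 for *Dhcr7*, -0.17 to 0.13 for *Hmgcs1*, -0.27 to 0.17 for *Insig1*, -0.20 to 0.27 for *Lss*, -0.24 to 0.065 for *Sqle* and -0.31 to 0.13 for *Srebf2*. The change to day 70 on the standard diet ran from -0.42 to 0.20 for *Hmgcs1*, -0.10 to 0.49 for *Idi1*, -0.080 to 0.45 for *Lss* and -0.13 to 0.40 for *Sqle*, and with GW3965 from -0.56 to 0.077 for *Insig1*. Of the other values per gene in these comparisons, 499 kept direction and side of the threshold under the alternatives and 334 on leaving out single samples. These counts hold no comparison of day 43, where the fit mattered most. There *Idi1* on the standard diet against day 0 turned from -0.91 with the ribosomal term to 0.082 without it.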
